A study of Mus musculus with 15 samples.

Results

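The genes described here are the 3 D-type cyclins (Ccnd1, Ccnd2 and Ccnd3) and 6 inhibitors of the cyclin-dependent kinases (Cdkn1a, Cdkn1b, Cdkn2a, Cdkn2b, Cdkn2c and Cdkn2d). They were taken by gene symbol from the annotation of the array, which held 21 probe sets for these 9 genes among 45037 probe sets and 18193 named genes. Total RNA of primary mouse chondrocytes was measured on 15 Affymetrix MOE 430 2.0 arrays, 3 for each of 5 treatments. The cells came from the limb cartilage of CD1 mouse embryos at embryonic day 15.5 and were grown as monolayers. The vehicle control was DMSO, which is the solvent of the inhibitors. LY294002 inhibits PI3K and was given at 10 µM according to the methods of the study. UO126 inhibits MEK, the kinase upstream of ERK. SB202190, labelled SB90 on the samples, is a p38 inhibitor that the design text of the series lists with the MEK/ERK pathway. Trichostatin A inhibits histone deacetylases. Doses of the last 3 inhibitors are not given in the sources used here. The sample labels give 24 h of treatment for all 15 arrays whereas the design text gives 2 h. No genetic change is given for any group, and the 3 arrays of a treatment carry the numbers 1 to 3 and are described as biological replicates.

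D-type cyclins bind CDK4 and CDK6 and drive phosphorylation of the retinoblastoma protein, which frees E2F factors to start DNA replication. The INK4 proteins encoded by Cdkn2a, Cdkn2b, Cdkn2c and Cdkn2d block CDK4 and CDK6, while the Cip/Kip proteins encoded by Cdkn1a and Cdkn1b act on a wider range of cyclin-dependent kinases. In the growth plate, cyclin D1 is known for its part in chondrocyte proliferation, and p21, the product of Cdkn1a, for its rise as chondrocytes leave the cell cycle.

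All values are log2 signals, so that a difference of 1 is a 2-fold change, and each gene was followed by its most intense probe set unless stated otherwise. A probe set was tested in a comparison when its mean in either group reached a signal of 50, or 5.64 on the log2 scale. A change was called at an adjusted p under 0.05 in limma, which adjusts over all probe sets tested. The 17 chondrocyte markers examined were all above the signal filter in DMSO, with Col2a1 at 14.32 ± 0.04 (SD, n = 3) and Acan at 12.32 ± 0.14. All 12 fibroblast and perichondrium markers were also above the filter in DMSO. Their mean was 11.15, against 11.76 for the chondrocyte markers. Skeletal muscle, leukocyte and osteoclast markers were measured above the filter in DMSO for 15 of 16, 10 of 12 and 5 of 6 genes. The means of these lists were 8.06, 7.32 and 7.21. RNA came from whole cultures, in which fewer cells of a type and less RNA per cell cannot be told apart.

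In DMSO all of the genes except Cdkn2a were detected above the filter. Of these 8 genes Trichostatin A changed 6, with Ccnd1, Ccnd2 and Cdkn2c lower and Cdkn1a, Cdkn2b and Cdkn2d higher, in a comparison where 49.7% of all gene representatives were called. Cdkn2a was also higher, but entered the test only through the Trichostatin A arrays. LY294002 changed 1 of 8 genes tested, Ccnd3, where 11.1% of gene representatives were called. UO126 and SB202190 changed 0 of 8 genes each, where 2.68% and 2.70% of gene representatives were called by limma. At an unadjusted limma p under 0.05, Ccnd3 and Cdkn2b passed with UO126, or 2 of 8 genes against 11.9% of gene representatives, and Ccnd2 and Cdkn1a with SB202190, or 2 of 8 against 14.7%. With LY294002 the count at that threshold was 4 of 8 (Ccnd3, Cdkn1b, Cdkn2b and Cdkn2c), against 28.6%. Cdkn2a was below the filter in these 3 comparisons. The 1 of 8 genes with LY294002 is close to the share of all genes, so the count is no result about the members as a set.

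**Figure D1:**
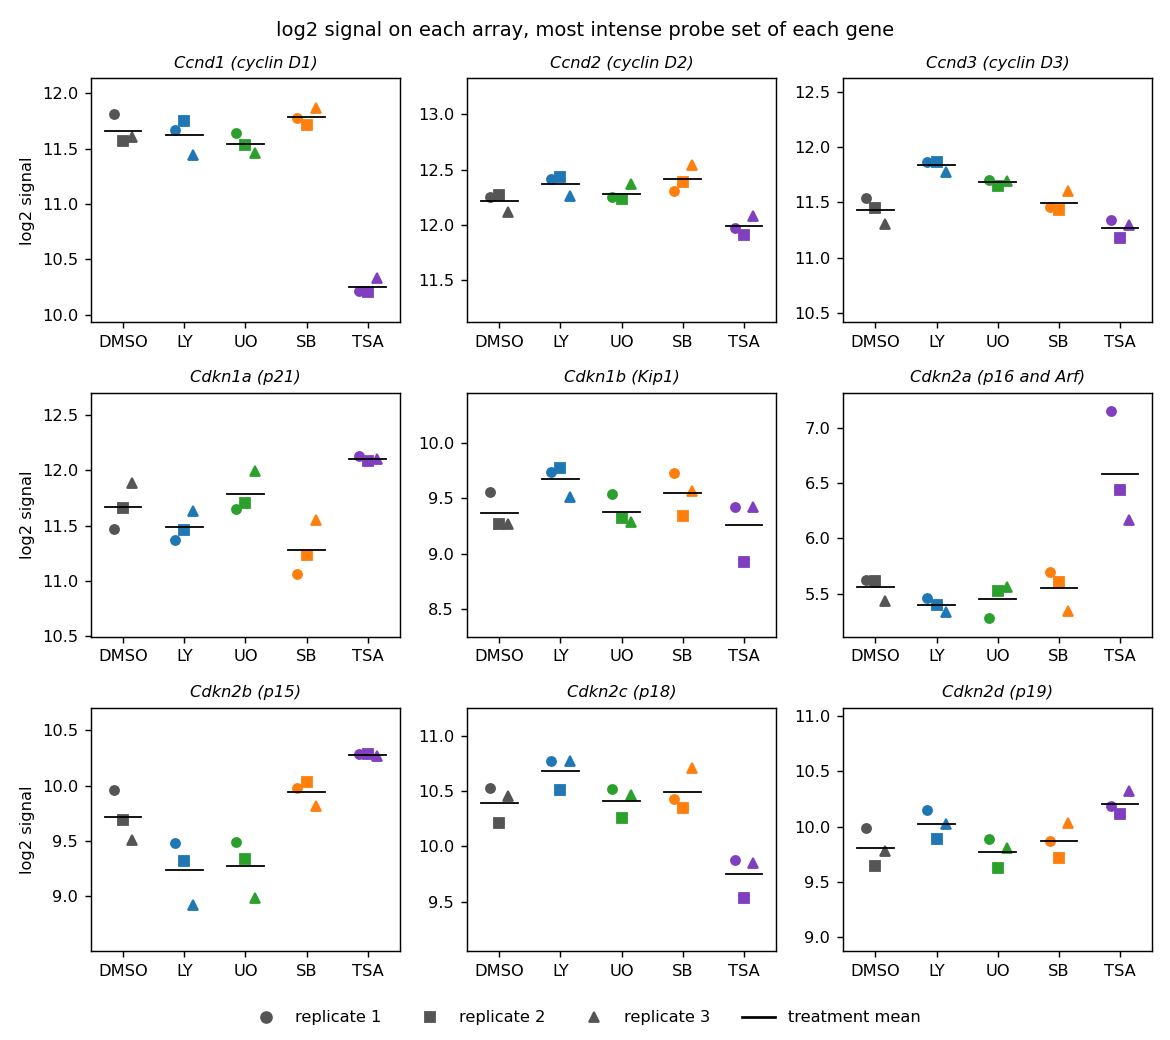
log2 signal (y axis) of the most intense probe set of each gene on all 15 arrays, by treatment (x axis; LY, LY294002; UO, UO126; SB, SB202190; TSA, Trichostatin A); symbols mark the replicate number, horizontal lines the mean of 3 arrays, and every panel spans 2.2 log2 units. The 3 Trichostatin A arrays lie below all other arrays for Ccnd1, Ccnd2 and Cdkn2c and above all others for Cdkn1a, Cdkn2a and Cdkn2b.

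Ccnd1 encodes cyclin D1, a mitogen-responsive D cyclin. On the DMSO arrays its log2 signals were 11.81, 11.57 and 11.60. With Trichostatin A they were 10.22, 10.20 and 10.33. The lowest DMSO array was thus far above the highest Trichostatin A array. The difference of -1.41 (SE 0.10) corresponded to a 2.66-fold decrease (limma adjusted p = 3.72e-09). The other probe sets of the gene, 1417419_at and 1448698_at, gave -1.69 and -1.56, both called. Under LY294002 the signals were 11.67, 11.75 and 11.45, under UO126 11.64, 11.53 and 11.46, and under SB202190 11.78, 11.72 and 11.86. These 9 arrays overlapped with the DMSO arrays, and the order of the means was SB202190, DMSO, LY294002, UO126 and Trichostatin A. No neighbours among the first 4 passed the test, whereas Trichostatin A was lower than each of the 3 kinase inhibitors in direct comparisons (adjusted p from limma 1.53e-09 to 9.64e-09).

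With LY294002 and UO126 all 3 probe sets of Ccnd1 had lower means than in DMSO, by differing amounts. Probe set 1417419_at gave 10.71, 10.74 and 10.44 in DMSO and 10.34, 10.32 and 10.07 in LY294002, with no overlap. It was called at -0.39 (SE 0.11, adjusted p = 0.0399 in limma), against -0.04 (SE 0.10, adjusted p = 0.822) for the most intense probe set. This call was lost when any array other than the third DMSO array was left out, with an adjusted p up to 0.164. It was also lost with the compared groups only, with each array centred on its median and without the Trichostatin A arrays. With UO126 the same probe set gave 10.34, 9.99 and 10.28, a difference of -0.43 (SE 0.11) at an adjusted p of 0.0604, and 0.0255 with the replicate number as a block in limma. Probe set 1448698_at read 11.65, 11.83 and 11.70 in DMSO, 11.51, 11.64 and 11.44 in LY294002 and 11.58, 11.56 and 11.51 in UO126. Neither inhibitor overlapped with DMSO on it, and the differences of -0.20 and -0.18 were not called (adjusted p = 0.192 and 0.554). The same probe set was lower with LY294002 than with SB202190 by -0.34 (adjusted p = 0.0383) and lower with UO126 than with SB202190 by -0.32 (adjusted p = 0.045). Leaving out arrays ended the first of these calls in 5 of 6 cases and the second in 6 of 6, with an adjusted p up to 0.157 and 0.2.

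Ccnd2 encodes cyclin D2. DMSO arrays stood at 12.25, 12.27 and 12.12 and Trichostatin A arrays at 11.97, 11.91 and 12.08. The groups did not overlap but the gap was narrow. The decrease of -0.23 (SE 0.09, 1.17-fold) was called at a limma adjusted p of 0.0432. Leaving out the first or the second array of either group ended the call, with an adjusted p up to 0.132, as did fitting these 2 groups alone (0.102) or centring each array on its median (0.112). Of the other 6 probe sets, 5 were called lower, from -0.37 to -0.97, where 20.6% of all probe sets were, and 1416123_at gave -0.42 (adjusted p = 0.0511). The deepest fall was on 1416124_at, which read 7.75, 7.28 and 7.11 in DMSO and 6.30, 6.11 and 6.81 in Trichostatin A. LY294002 (12.42, 12.44 and 12.27), UO126 (12.25, 12.23 and 12.37) and SB202190 (12.31, 12.39 and 12.54) gave differences of 0.16, 0.07 and 0.20 from DMSO, none called. The order of the means was SB202190, LY294002, UO126, DMSO and Trichostatin A, and only the last step exceeded the spread by the test.

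Ccnd3 encodes cyclin D3 and was the member that LY294002 changed. Its log2 signals were 11.53, 11.45 and 11.31 in DMSO and 11.86, 11.86 and 11.78 in LY294002. Each LY294002 array was above each DMSO array. The increase of 0.40 (SE 0.08, 95% confidence interval 0.23 to 0.57) was 1.32-fold, at an adjusted p of 0.00621 in limma. It was an increase in 3 of 3 pairs of the same replicate number, between 0.33 and 0.47. UO126 arrays read 11.70, 11.65 and 11.70, also above every DMSO array, with a difference of 0.25 (SE 0.08) that was not called (adjusted p = 0.169). SB202190 arrays (11.46, 11.43 and 11.60) and Trichostatin A arrays (11.34, 11.18 and 11.29) overlapped with DMSO. The Trichostatin A difference of -0.16 (adjusted p = 0.12) was called only after quantile normalization, at -0.29 (adjusted p = 0.00146). In direct comparisons Ccnd3 was higher with LY294002 than with SB202190 by 0.34 (adjusted p = 0.025), a call lost when the first or second array of either group was left out, with an adjusted p up to 0.126. LY294002 and UO126 differed by 0.15 (adjusted p = 0.318). The order of the means was LY294002, UO126, SB202190, DMSO and Trichostatin A, and no neighbours in it passed the test.

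The dimmer probe sets of Ccnd3 did not show this increase. Probe set 1444323_at read 7.91, 8.03 and 8.01 in DMSO and 7.84, 7.86 and 7.92 in LY294002, a difference of -0.11 (SE 0.08, limma adjusted p = 0.427). Probe set 1438805_at was below the filter in every group, with DMSO at 4.47, 4.48 and 4.47. Averaged over the 3 probe sets, the difference was 0.02 and not called (adjusted p = 0.804). With only the DMSO and LY294002 arrays in the limma fit the adjusted p was 0.0697.

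**Figure D2:**
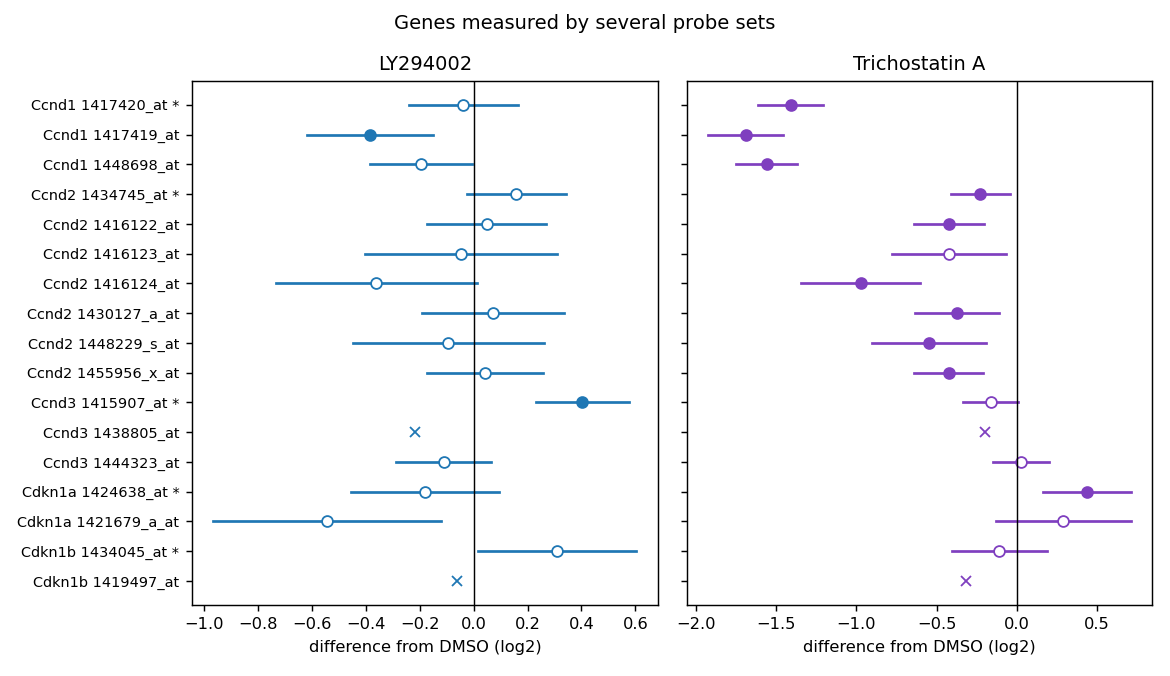
Difference from DMSO (log2, x axis) of every probe set of the 5 genes that have more than 1 (y axis; * marks the most intense), for LY294002 on the left and Trichostatin A on the right; lines are 95% confidence intervals, filled points are called by limma, open points are not, and crosses are below the signal filter and untested. With Trichostatin A all probe sets of Ccnd1 and Ccnd2 lie below 0, whereas with LY294002 the 1415907_at increase of Ccnd3 is not shared by its other probe sets.

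The inhibitors called with Trichostatin A moved in both directions, and the promoters of the 5 genes are shown for that reason. Windows of 250 bases before an annotated start were taken from RefSeq on build GRCm38.p6, which gave 11 windows for 7 of the members; Ccnd1 and Ccnd2 had none. Sequences are written 5′ to 3′ along the gene, with capitals for the GC box (GGGCGG or CCGCCC), a binding sequence of Sp factors, and for the palindromic cyclic AMP response element TGACGTCA. The 2 motifs cannot overlap each other.
Cdkn1a, chr17:29093519-29093768, plus strand: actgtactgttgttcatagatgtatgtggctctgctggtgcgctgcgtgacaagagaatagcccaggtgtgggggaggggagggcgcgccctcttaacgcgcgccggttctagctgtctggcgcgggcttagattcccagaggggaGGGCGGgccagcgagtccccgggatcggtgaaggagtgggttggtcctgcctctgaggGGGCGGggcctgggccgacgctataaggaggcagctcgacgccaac
Cdkn2b, chr4:89311033-89311282, minus strand: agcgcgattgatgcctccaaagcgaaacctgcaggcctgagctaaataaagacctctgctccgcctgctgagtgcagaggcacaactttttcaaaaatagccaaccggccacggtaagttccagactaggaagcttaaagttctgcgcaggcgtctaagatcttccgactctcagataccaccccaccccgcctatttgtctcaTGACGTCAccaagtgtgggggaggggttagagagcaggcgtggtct
Cdkn2d, chr9:21291210-21291459, minus strand: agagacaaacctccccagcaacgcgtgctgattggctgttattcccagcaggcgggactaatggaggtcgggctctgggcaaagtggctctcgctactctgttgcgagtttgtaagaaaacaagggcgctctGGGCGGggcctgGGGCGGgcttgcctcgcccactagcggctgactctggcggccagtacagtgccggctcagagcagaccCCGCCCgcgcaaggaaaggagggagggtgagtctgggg
Cdkn2c, chr4:109666757-109667006, minus strand: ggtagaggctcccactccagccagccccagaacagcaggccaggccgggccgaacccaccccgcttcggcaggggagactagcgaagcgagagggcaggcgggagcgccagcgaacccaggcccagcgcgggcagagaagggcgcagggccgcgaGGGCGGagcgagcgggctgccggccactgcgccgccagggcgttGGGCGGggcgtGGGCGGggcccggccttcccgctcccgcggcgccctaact
Cdkn2a, upstream start, chr4:89294620-89294869, minus strand: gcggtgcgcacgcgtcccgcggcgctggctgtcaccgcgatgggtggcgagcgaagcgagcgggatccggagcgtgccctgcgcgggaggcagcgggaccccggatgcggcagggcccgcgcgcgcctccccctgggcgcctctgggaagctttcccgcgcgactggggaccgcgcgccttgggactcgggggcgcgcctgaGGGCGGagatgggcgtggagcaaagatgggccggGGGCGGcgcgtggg
Cdkn2a, downstream start, chr4:89282193-89282442, minus strand: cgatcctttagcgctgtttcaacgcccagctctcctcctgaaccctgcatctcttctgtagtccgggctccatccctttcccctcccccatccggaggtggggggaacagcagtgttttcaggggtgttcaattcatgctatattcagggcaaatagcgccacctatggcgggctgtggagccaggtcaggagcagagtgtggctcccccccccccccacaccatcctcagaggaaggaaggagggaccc
GC boxes numbered 2 in this window of Cdkn1a, 3 in Cdkn2d, 3 in this window of Cdkn2c, 2 at the upstream start of Cdkn2a and 0 at its downstream start. Cdkn1a and Cdkn2c each have another annotated start, whose windows (chr17:29090729-29090978 and chr4:109665373-109665622) held 0 GC boxes and 0 response elements and are not printed. Cdkn2b held 0 GC boxes in this window and 1 response element. Members not called with Trichostatin A held GC boxes too, with 1 in the window of Cdkn1b and 2 and 1 in those of Ccnd3. Of all 32851 windows, 32.7% held at least 1 GC box, 16.7% at least 2, 8.47% at least 3, and 1.55% held the response element. The printed windows were 53.6% to 78.4% G and C, against a median of 52.4% for all windows. The windows of Cdkn1a and Cdkn2c that are not printed were 54.0% and 42.8%, so the printed range does not cover every start. A link of these motifs to the Trichostatin A values was not tested. Cdkn2a has 2 windows because p16 and Arf are made from separate first exons, and its upstream start lies nearer to Cdkn2b, the neighbouring protein-coding gene on chromosome 4.

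Cdkn1a encodes p21, a Cip/Kip inhibitor and a p53 target. Log2 signals were 11.47, 11.66 and 11.88 in DMSO and 12.13, 12.08 and 12.10 in Trichostatin A. The DMSO arrays were spread out while the Trichostatin A arrays stood close together above all of them. The increase was 0.44 (SE 0.13, 1.35-fold, limma adjusted p = 0.0117), and without the first DMSO array it was 0.34 (adjusted p = 0.055). After quantile normalization it was 0.33 and not called (adjusted p = 0.131). The second probe set, 1421679_a_at, gave 0.29 (SE 0.20, adjusted p = 0.256), and the mean of both probe sets was not called (adjusted p = 0.0548).

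SB202190 arrays of Cdkn1a read 11.06, 11.23 and 11.55 and overlapped with DMSO through the third array. The difference of -0.39 (SE 0.13) was not called in limma (adjusted p = 0.178), but within the same replicate number it was -0.40, -0.43 and -0.33. With the replicate number as a block the adjusted p was 0.0124, and on 1421679_a_at the difference of -0.60 gave 0.0261. UO126 arrays (11.65, 11.71 and 11.99) were above SB202190 arrays without overlap, by 0.50 (SE 0.13, adjusted p = 0.0314). That call ended without the first or second SB202190 array or the second or the third UO126 array, with an adjusted p up to 0.199. LY294002 arrays (11.37, 11.46 and 11.63) differed from DMSO by -0.18 (adjusted p = 0.409), and on 1421679_a_at by -0.54 (adjusted p = 0.105, and 0.0193 with the block). The order of the means was Trichostatin A, UO126, DMSO, LY294002 and SB202190, and no neighbours in it passed the test.

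Cdkn1b encodes p27, also named Kip1, the other Cip/Kip inhibitor in the set. Its arrays read 9.55, 9.27 and 9.26 in DMSO, 9.73, 9.78 and 9.51 in LY294002, and 9.53, 9.32 and 9.28 in UO126. They read 9.73, 9.34 and 9.57 in SB202190 and 9.42, 8.92 and 9.43 in Trichostatin A. All 4 inhibitor groups overlapped with DMSO. The widest difference from DMSO was 0.31 with LY294002 (SE 0.14, 95% confidence interval 0.02 to 0.60, limma adjusted p = 0.182), and Cdkn1b was higher with LY294002 than with Trichostatin A by 0.42 (adjusted p = 0.023). The order of the means was LY294002, SB202190, UO126, DMSO and Trichostatin A, with no difference between neighbours beyond the spread. Probe set 1419497_at was below the filter in every group.

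Cdkn2b encodes p15, an INK4 inhibitor induced by TGF-beta in many cells. DMSO arrays read 9.96, 9.69 and 9.51. Trichostatin A arrays read 10.28, 10.29 and 10.27, above every DMSO array and nearly equal to each other. The increase was 0.56 (SE 0.15, 1.47-fold, limma adjusted p = 0.00516). LY294002 arrays read 9.48, 9.32 and 8.92, and UO126 arrays 9.49, 9.34 and 8.99. Both groups lay below every DMSO array, by a small margin from the third DMSO array. The differences were -0.48 (SE 0.15, adjusted p = 0.0527) and -0.45 (SE 0.15, adjusted p = 0.184), so neither was called. Within a replicate number they were -0.48, -0.37 and -0.59 with LY294002 and -0.47, -0.35 and -0.52 with UO126. The limma fit with the number as a block called both, at an adjusted p of 0.00234 and 0.00927. The LY294002 difference also passed with a filter at a signal of 100 (0.0442), after quantile normalization (0.0102) and without the first LY294002 array (0.0397). It passed as well when every gene was fitted as the mean of its probe sets.

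SB202190 arrays of Cdkn2b stood at 9.98, 10.03 and 9.82, overlapping with DMSO. LY294002 was lower than SB202190 by -0.71 (SE 0.15, 1.63-fold, limma adjusted p = 0.00944), a comparison in which 1 of 8 genes was called lower, against 2.19% of gene representatives, and 1 higher, against 3.81%. UO126 was lower than SB202190 by -0.67 (SE 0.15, adjusted p = 0.0107), again with 2 of 8 genes called and 6.91% of gene representatives. Without the second SB202190 array the adjusted p was 0.0527 for LY294002 and 0.0561 for UO126, and it was 0.052 and 0.0763 for UO126 without the first SB202190 or the third UO126 array. LY294002 and UO126 differed by -0.03, with a 95% confidence interval from -0.35 to 0.28. The order of the means was Trichostatin A, SB202190, DMSO, UO126 and LY294002, in which no neighbours passed the test.

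**Figure D3:**
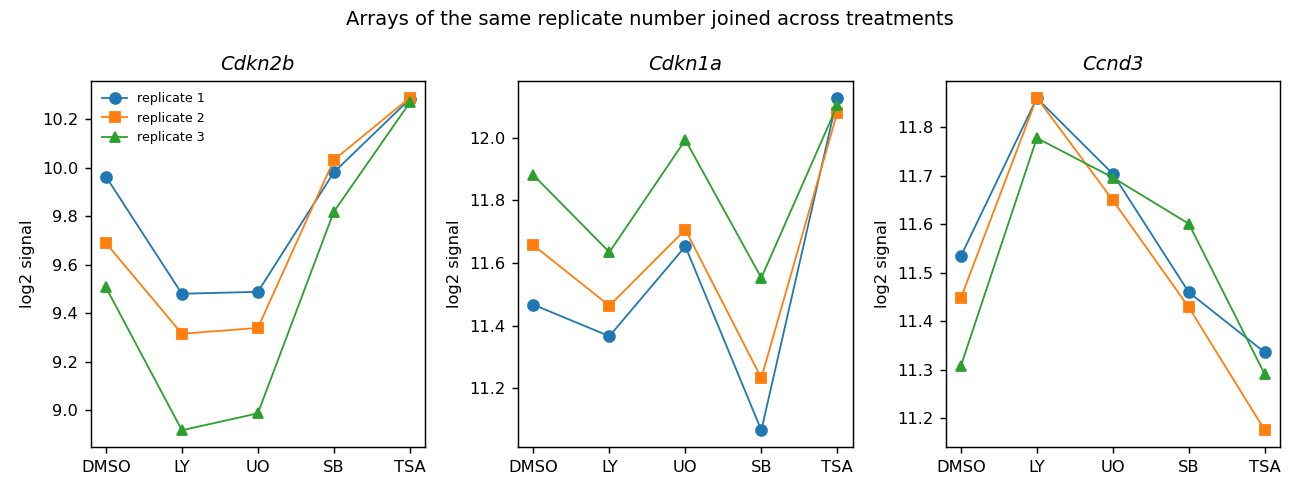
log2 signal (y axis) of Cdkn2b, Cdkn1a and Ccnd3 by treatment (x axis, abbreviated as before), with arrays of the same replicate number joined by lines that mark the number only, since the treatments have no order. For Cdkn2b the LY294002 and UO126 arrays are below the DMSO array of their own number by 0.35 to 0.59, and for Cdkn1a the SB202190 array is below it by 0.33 to 0.43.

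Cdkn2c encodes p18, an INK4 inhibitor. Log2 signals were 10.52, 10.21 and 10.45 in DMSO and 9.88, 9.53 and 9.85 in Trichostatin A, with all Trichostatin A arrays lower. The decrease was -0.64 (SE 0.12, 1.56-fold, limma adjusted p = 0.000447). Within each replicate number it was between -0.60 and -0.68, although the check of replicate numbers did not pair Trichostatin A with DMSO arrays. LY294002 arrays read 10.77, 10.51 and 10.77, overlapping with DMSO. The difference of 0.29 (SE 0.12) had an adjusted p of 0.169, and of 0.0153 with the number as a block. UO126 (10.52, 10.25 and 10.47) and SB202190 (10.42, 10.35 and 10.71) gave 0.02 and 0.10, and the order of the means was LY294002, SB202190, UO126, DMSO and Trichostatin A, with only the last step past the test.

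Cdkn2d encodes p19 of the INK4 family. DMSO arrays read 9.99, 9.65 and 9.78 and Trichostatin A arrays 10.19, 10.11 and 10.32, without overlap. The increase of 0.40 (SE 0.11, 1.32-fold) had a limma adjusted p of 0.00731. LY294002 (10.15, 9.89 and 10.03), UO126 (9.89, 9.63 and 9.81) and SB202190 (9.87, 9.72 and 10.03) overlapped with DMSO, with differences of 0.21, -0.03 and 0.07. The order of the means was Trichostatin A, LY294002, SB202190, DMSO and UO126, and no neighbours differed beyond their spread.

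Cdkn2a was the dimmest member. Its probe set was 1450140_a_at, and which of the p16 and Arf transcripts it detects was not checked. It read 5.62, 5.61 and 5.44 in DMSO, 5.46, 5.40 and 5.34 in LY294002, 5.28, 5.53 and 5.56 in UO126 and 5.70, 5.60 and 5.34 in SB202190. Only with Trichostatin A did the group mean pass the filter, at 7.14, 6.44 and 6.16. Since the DMSO mean of 5.56 was below the filter, the increase is given against the filter itself, which the Trichostatin A mean of 6.58 exceeded by 0.94, or 1.92-fold. The limma adjusted p of the measured difference was 0.000141, in a test that the gene entered through the group in which it was high. The first Trichostatin A array was well above the others. Without it the measured difference fell from 1.02 to 0.74, and the limma adjusted p was 0.000185.

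**Figure D4:**
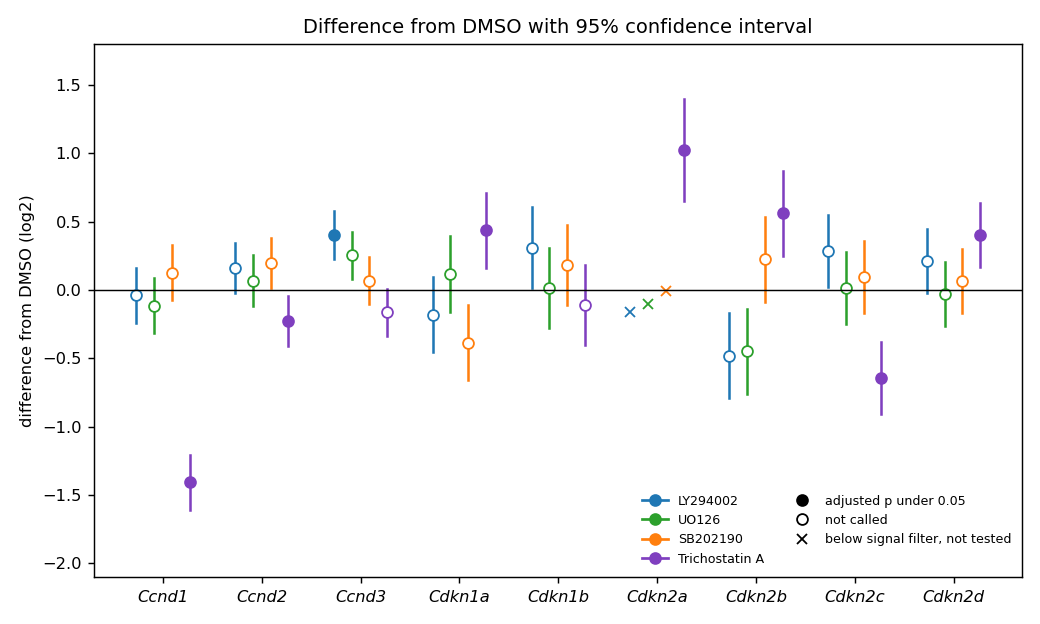
Difference from DMSO (log2, y axis) of the most intense probe set of each gene (x axis) for the 4 inhibitors, with 95% confidence intervals from limma; filled points are called, open points are not, and crosses are below the filter and untested. With Trichostatin A, Ccnd1 at -1.41 and Cdkn2a at 1.02, the latter set against DMSO arrays that average below the filter, are the outermost points, and Ccnd3 is the only filled point of LY294002.

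Trichostatin A was also compared with each kinase inhibitor. Leaving aside Cdkn2a, which again entered only through Trichostatin A, 7 of 8 genes were called against LY294002, and 46.6% of gene representatives. Against UO126, 6 of 8 genes were called, and 49.4% of gene representatives. Against SB202190 the count was again 6 of 8 genes, and 44.8% of gene representatives. LY294002 against UO126 gave 0 of 8 genes in limma, where 7.27% of gene representatives were called, and 4 of 8 had an unadjusted p under 0.05, against 24.1% of gene representatives. With the number as a block, LY294002 against UO126 called Cdkn2d (0.25, adjusted p = 0.0475), Cdkn2c (0.27, adjusted p = 0.0258) and Cdkn1a (-0.30, adjusted p = 0.0279). Over all probe sets the block raised the calls of that comparison from 1945 to 4828 of 34496. The block also called Cdkn1a lower with UO126 than with Trichostatin A (-0.32, adjusted p = 0.00446, and 0.058 without it). For SB202190 against Trichostatin A it called Cdkn1b (0.29, adjusted p = 0.0341, and 0.117 without it) and Cdkn2b (-0.34, adjusted p = 0.00756, and 0.0857 without it).

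Genes around the members in the pathway were taken as lists, each gene by its most intense probe set. Of all gene representatives, 27.0% were called higher and 22.7% lower with Trichostatin A, 8.85% and 2.21% with LY294002, 1.66% and 1.02% with UO126, and 1.70% and 1.01% with SB202190. Of 15 other cyclins, cyclin-dependent kinases and their regulators tested with Trichostatin A, not all of them specific to G1, 11 were called lower and 2 higher in limma. Ccna2, cyclin A2, fell by 2.62, Ccne2, cyclin E2, by 1.42 and Skp2, which targets p27 for degradation, by 0.94. Cdk4 and Cdk6, the kinases that D cyclins activate, gave -0.90 (adjusted p = 1.16e-06) and 0.24 (adjusted p = 0.0577), and Cdkn1c, which encodes the Cip/Kip inhibitor p57, gave -0.52 (adjusted p = 0.00346). These 3 genes were singled out for their roles with the values known. The median of the list was -0.64 against -0.04 for all genes tested. With LY294002, UO126 and SB202190, 0 of 15 were called in limma, and 1 of 15 had an unadjusted p under 0.05 with each.

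Of 16 RB, E2F and DP genes tested with Trichostatin A, 6 were called higher and 7 lower, against 27.0% and 22.7% of all genes, with a median of -0.28. Rb1, the target of cyclin D kinases, rose by 1.99 (3.98-fold, limma adjusted p = 3.48e-09). E2f8, a repressor of the family, fell by 1.69 and Lin9, a subunit of the complex that regulates cell cycle genes, by 1.51. LY294002 raised 4 of 16 and lowered 0, against 8.85% and 2.21% of all genes, with Tfdp2 at 0.58, Rbl2, which encodes p130, at 0.54 and Rb1 at 0.50. SB202190 raised Rbl2 alone, by 0.61 (adjusted p = 0.0346), and UO126 changed 0 of 16 in limma, with 1 at an unadjusted p under 0.05.

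E2F target genes of DNA replication were called lower in 20 of 23 cases with Trichostatin A and higher in 0. Tk1, thymidine kinase, fell by 3.05. Cdc6, a licensing factor, fell by 2.63 and Rrm2, a subunit of ribonucleotide reductase, fell by 2.28. The median was -1.21. With the 3 kinase inhibitors 0 of 23 were called in limma (1, 3 and 0 at an unadjusted p under 0.05 for LY294002, UO126 and SB202190), and medians were -0.03 for LY294002, -0.12 for UO126 and 0.08 for SB202190. All 22 mitotic genes were called lower with Trichostatin A, with a median of -1.96, led by Nusap1, Cenpa and Plk1 at -2.41, -2.41 and -2.38. With UO126 the 22 mitotic genes all had negative differences with a median of -0.12, and 0 were called in limma or had an unadjusted p under 0.05. LY294002 and SB202190 also changed 0 of 22 in limma, with 2 and 0 at an unadjusted p under 0.05 and medians of 0.07 and 0.08.

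Of 27 regulators of D cyclin and inhibitor transcription, Trichostatin A raised 15 and lowered 5 in limma, against 27.0% and 22.7% of all genes, with a median of 0.36. Cebpa fell by 1.54, while Id2 and Id1, inhibitors of basic helix-loop-helix factors, rose by 1.50 and 1.30. LY294002 raised 6 and lowered 1, against 8.85% and 2.21% of all genes, with Id3 at 0.56, Id1 at 0.47 and Fosl1, an AP-1 subunit, at -0.99. UO126 lowered 2 and raised 1, with Fosl1 at -0.81, Id1 at -0.64 and Foxo4 at 0.35. SB202190 raised 2, Id2 at 0.71 and Id3 at 0.64. Of 20 p53 target genes other than Cdkn1a, Trichostatin A raised 10 and lowered 4, against 27.0% and 22.7% of all genes, with Pmaip1 at 2.85, Plk2 at 2.12 and Btg2 at 1.75. LY294002 raised 2 and lowered 5, against 8.85% and 2.21%, with Gadd45a at 0.78, Aen at -0.48 and Tnfrsf10b at -0.42. UO126 lowered 1, Perp at -0.40, and SB202190 raised 2, Gadd45a at 0.87 and Sesn1 at 0.66.

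**Figure D5:**
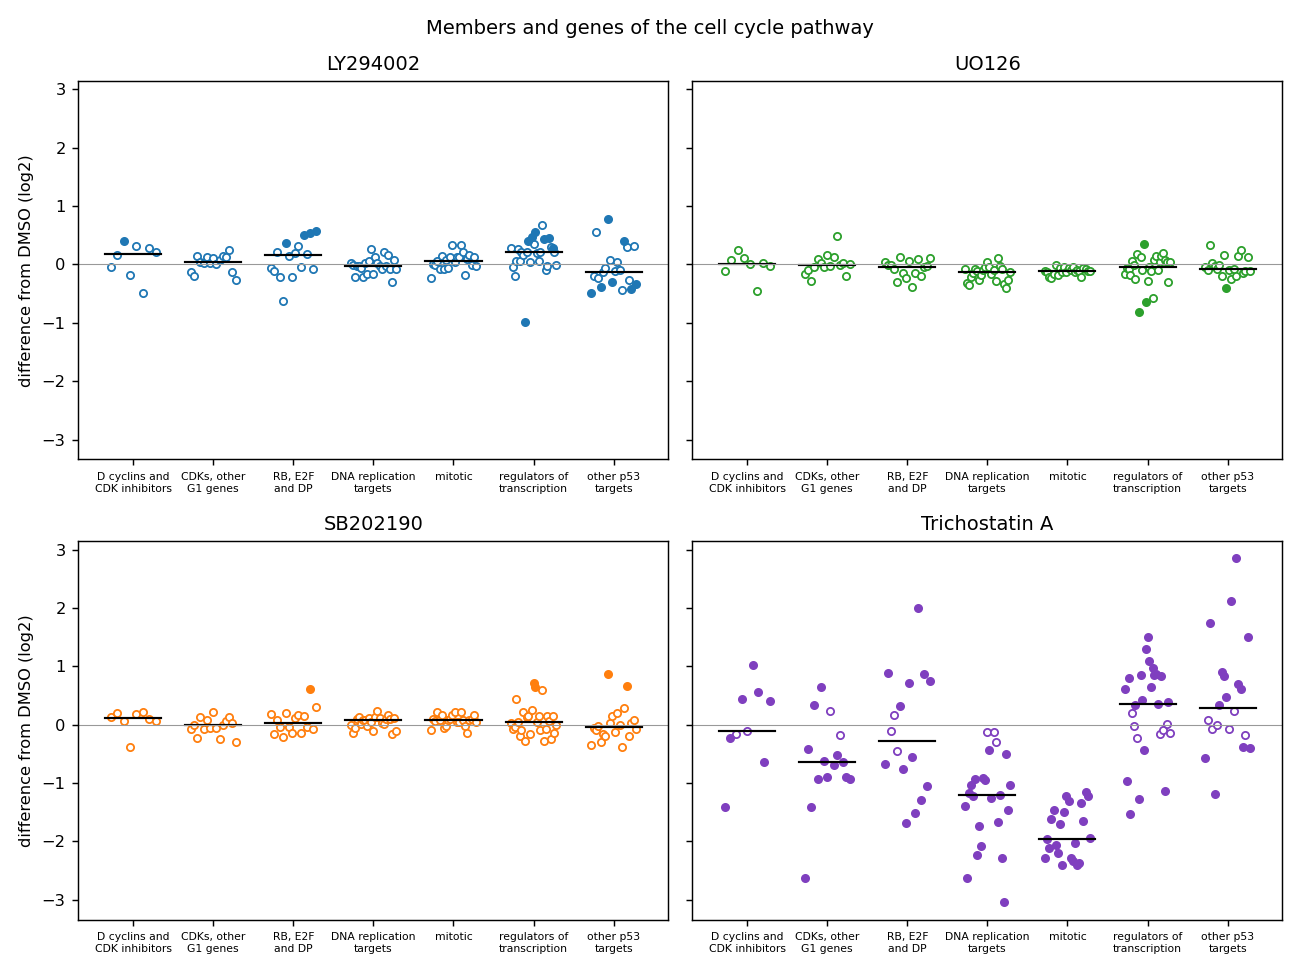
Difference from DMSO (log2, y axis) of each tested gene in the lists (x axis), in 1 panel per inhibitor; filled points are called by limma, open points are not, and the black line is the median of the list. With Trichostatin A the mitotic list lies wholly below 0 with a median of -1.96, and with the kinase inhibitors every list median is between -0.12 and 0.22.

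Cell type markers were counted in the same comparisons. Of all gene representatives, 22.7% were called lower and 27.0% higher with Trichostatin A. The shares were 2.21% and 8.85% with LY294002, 1.02% and 1.66% with UO126, and 1.01% and 1.70% with SB202190. Counts of 1 gene in a list are therefore no result about a cell type. With Trichostatin A 17 of 17 chondrocyte markers were called lower, and their mean log2 signal went from 11.70 to 11.82 on the DMSO arrays to 10.09 to 10.64. The skeletal muscle markers were called lower in 13 of 15 cases, from 7.54 to 8.64 in DMSO to 6.63 to 6.76. Leukocyte markers were lower in 6 and higher in 1 of 10, and fibroblast markers lower in 8 and higher in 2 of 12. Hypertrophic chondrocyte markers were lower in 4 of 6 and osteoclast markers in 1 of 5, and endothelial and erythroid markers were each higher in 1, of 5 and of 3. Keratinocyte and epithelial markers gave 0 of 4 in limma and 1 at an unadjusted p under 0.05. With LY294002 the chondrocyte markers were called higher in 5 of 17 and ranged from 12.15 to 12.24 per array, and with UO126 they were also called higher in 5 of 17, from 12.15 to 12.41. All 17 differences were positive with each inhibitor, with medians of 0.38 and 0.53. At an unadjusted limma p under 0.05 were 11 and 13 of 17, against 28.6% and 11.9% of gene representatives. With SB202190 0 of 17 were called in limma, at 11.46 to 11.75, and 3 had an unadjusted p under 0.05. Hypertrophic chondrocyte markers rose in 2 of 6 with UO126, with a median of 0.66, and 0 of 6 were called in limma with LY294002 and SB202190 (0 and 2 at an unadjusted p under 0.05, medians 0.17 and -0.52). Skeletal muscle markers had 0 called in limma with the kinase inhibitors, with 2 of 15, 3 of 16 and 3 of 16 at an unadjusted p under 0.05 and medians of -0.31 for LY294002, 0.36 for UO126 and 0.43 for SB202190, and 14 of 15 differences were negative with LY294002. Fibroblast markers rose in 2 of 12 with SB202190 and 1 with LY294002, and 1 fell with UO126. Leukocyte markers rose in 1 of 10 and fell in 1 with LY294002, and rose in 1 with SB202190. Among osteoclast markers 1 of 5 fell with LY294002 and 1 rose with SB202190. Calls on the other marker lists numbered 0 in limma with these 3 inhibitors, with 1 keratinocyte marker (LY294002) and 1 endothelial marker (SB202190) at an unadjusted p under 0.05. The part of these shifts in the values of the D cyclins and inhibitors was not tested.

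The members with the widest range of treatment means were Ccnd1 (1.53), Cdkn2a (1.18) and Cdkn2b (1.04). Among 15825 genes, those with the highest Pearson correlation with Ccnd1 over the 15 arrays were Mcm3, a helicase subunit (0.993), Arpin (0.991) and A530047J11Rik (0.990). For Cdkn2a they were Csrnp1 (0.951), Madd (0.948) and Fam234b (0.948). For Cdkn2b they were Acaa2 (0.949), Cd34 (0.940) and Rtp4 (0.927). The arrays share the 5 treatments, and for Ccnd1 and Cdkn2a the Trichostatin A arrays are far from the rest, so these values are descriptions.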

How the data were processed

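The deposited table holds the authors' log2 signals, 1 for each probe set and array, normalized between arrays; the methods of the study name GC-RMA for this deposit, which the values alone do not settle. Such values hold no read depth. Each treatment mean rests on 3 arrays, and the spread was estimated from all 15 arrays. The 64 control probe sets among 45101 were dropped. Symbols came from GEO's platform annotation, with 34945 probe sets of 1 gene, 932 of several and 9160 of none; looked up by gene identifier in RefSeq, 34741 matched and 0 symbols changed. The most intense probe set over the 15 arrays stood for a gene.

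Treatment means were estimated from the 15 arrays jointly (limma 3.58.1, R 4.3.3, 10 residual degrees of freedom) with empirical Bayes moderation and Benjamini-Hochberg adjustment over the probe sets tested, in 10 pairwise comparisons. An exact permutation test of 3 against 3 arrays cannot go below 0.1. The fit was tested on simulated data. The members, 6 pathway lists and marker lists were chosen with earlier results of these data known. Named list genes are up to 3 called genes of the largest change per list and comparison with DMSO.

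Replicate numbers were checked by correlating the deviations of same-numbered arrays from their treatment means. All 3 pairs exceeded 0.1 for DMSO with LY294002 (0.367 to 0.748), UO126 (0.295 to 0.695) and SB202190 (0.224 to 0.302), and in every other comparison except Trichostatin A with DMSO (lowest 0.0288) and with LY294002 (lowest -0.11). The methods of the study describe 3 independent experiments for the DMSO and LY294002 cultures. They do not say which arrays came from the same experiment. The pairing by number was thus read from the data, and the number as a block was an alternative fit. Promoter windows are RefSeq sequences of GRCm38.p6.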

Additional observations from a re-analysis of the deposited data

How the results depend on the processing

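Of 725 recomputed differences over 47 results for single genes, 637 kept their direction and side of the threshold, 57 lost a call, 9 gained one and 22 changed sign. Every count of members called in the 4 comparisons with Trichostatin A stayed within 1.5 times its value under the alternatives run. For LY294002 against DMSO the count of 1 became 3 with the replicate block, 0 with the arrays of the compared groups only, 2 with a filter at a signal of 100 and 2 after quantile normalization, and lay between 1 and 2 when an array was left out. The replicate block moved the count from 0 to 1 for UO126 and for SB202190 against DMSO. For LY294002 against UO126 the count went from 0 to 3, while calls over all probe sets went from 1945 to 4828 of 34496. The block removed no call of a member. Calls over all probe sets also rose with the block in the comparisons of the kinase inhibitors with DMSO, as given below. The member counts thus rose along with calls over the whole array. For LY294002 against SB202190 the count of 2 was 1 with the compared groups only and with the mean of all probe sets, and between 0 and 2 with an array left out. For UO126 against SB202190 it was 1 after quantile normalization and without the Trichostatin A arrays, and between 0 and 2 with an array left out.

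Sign changes touched uncalled differences only. Against DMSO, Ccnd1 with LY294002 was 0.0122 with arrays centred on their medians. With the mean of all probe sets, Ccnd2 with LY294002 was -0.0256, Ccnd2, Cdkn1a and Cdkn1b with UO126 were -0.0797, -0.037 and -0.0542, and Ccnd3 with SB202190 was -0.0848. After quantile normalization, Ccnd2 and Cdkn2c with UO126 were -0.004 and -0.0249. With an array left out, the ranges that crossed 0 were -0.1036 to 0.0494 for Ccnd1 with LY294002, -0.0634 to 0.1098 for Cdkn1b with UO126, -0.075 to 0.0955 for Cdkn2c with UO126, -0.1122 to 0.0595 for Cdkn2d with UO126, -0.0099 to 0.1696 for Cdkn2c with SB202190, -0.0138 to 0.1579 for Cdkn2d with SB202190 and -0.1923 to 0.0583 for Cdkn1b with Trichostatin A. Over all probe sets, the block raised the calls against DMSO from 2978 to 6370 of 34562 with LY294002. With UO126 they rose from 667 to 1507 of 34612 and with SB202190 from 669 to 1905 of 34539. The compared groups alone gave 696, 318 and 368. Quantile normalization gave 1017 calls with UO126 and 1280 with SB202190. It moved the split of all LY294002 calls from 2362 higher and 616 lower to 2309 and 1410, and centring to 3113 and 377. Causes were not tested. With 3 arrays a group, differences near the standard error of a probe set could not be told from 0.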
